A study of Homo sapiens with 4 samples.

Results

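VPS33A and 9 genes whose products work with it or beside it in membrane tethering were followed in wild-type and TOP3B-knockout HCT116 cells. These 10 genes were picked by symbol from 35820 rows of the deposited count table: the 4 core subunits shared by the HOPS and CORVET complexes (VPS11, VPS16, VPS18 and VPS33A), the 2 subunits particular to HOPS (VPS39 and VPS41), the 2 particular to CORVET (VPS8 and TGFBRAP1), and the pair VPS33B and VIPAS39, which form the related complex CHEVI. VPS33A was chosen because its counts were lower in the knockout, so its values are a description and no test is given for it. The other 9 entered by complex membership. All 10 had enough counts to be tested.

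HCT116 is an established line of human colon carcinoma cells, grown here with no treatment. Wild-type cells (WT, 2 libraries) were compared with the clone E2-4, which was made by CRISPR with a guide RNA to exon 2 of TOP3B (KO, 2 libraries). TOP3B is a topoisomerase that acts on DNA and on RNA. The KO group is 1 clone, so clone and genotype cannot be told apart, and nothing in the labels tells if replicate libraries were made from different cultures. The p-values given here measure only the spread between these libraries, which may be technical.

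HOPS and CORVET are large complexes that hold 2 membranes together before they fuse. CORVET acts on early endosomes, where it binds the GTPase RAB5, and HOPS acts on late endosomes and lysosomes, where it works with RAB7 and RAB2. VPS33A and VPS33B belong to the Sec1/Munc18 family, whose members clasp SNARE proteins while these zip into the bundle that drives fusion. HOPS also serves the fusion of autophagosomes with lysosomes, through the SNAREs STX17, SNAP29 and VAMP8.

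The libraries held 10450048 to 16143634 estimated counts. WT replicate 1 stood somewhat apart, with a TMM scaling factor of 0.858 against 1.04 to 1.06 in the others. TOP3B itself was at 57.1 and 66.5 CPM (counts per 1000000 counts of scaled library size) in WT and 43.9 and 54.7 CPM in KO (log2 difference -0.32 with an SE of 0.17; edgeR adjusted p = 0.522). An edit in exon 2 need not remove the transcript, and the level is no check of the edit. Of 8 epithelial markers, 6 to 8 had counts in each library, with a summed level of 2233 and 2713 CPM in WT and 1510 and 1590 CPM in KO. KRT19 made up most of that sum, with 2243 and 1744 CPM in WT and 1206 and 1083 CPM in KO. ELF3 and KRT19 passed DESeq2 as lower in KO, but neither passed edgeR (adjusted p = 0.246 for ELF3 and 0.293 for KRT19). DESeq2 called 0.89% of all genes lower in KO. EPCAM and CDH1 were lower in both KO libraries and passed neither test. With ELF3 and KRT19, 4 of the 7 tested markers were thus lower in KO without overlap, against 23.5% of all tested genes. KRT8, KRT18 and CDX2 overlapped between groups, KRT18 with a log2 fold change of 0.41. The part of these markers in other results was not tested. VIL1 was at 0 counts in 3 libraries and CDX2 in KO replicate 2. The 15 markers of fibroblasts, leukocytes and endothelial cells summed to 2.08 to 4.01 CPM. PTPRC, CD3E, COL1A2, COL3A1 and VWF were at 0 counts in all 4 libraries. COL1A1 and CD68 had counts in all 4 libraries and made up most of that sum. COL1A1 had 12 and 20 counts in WT and 7 and 21 in KO, and CD68 had 34 and 15 in WT and 16 and 21 in KO. In RNA from bulk cells, fewer cells of a type and less RNA per cell cannot be told apart.

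Promoter sequences were available for 7 of the 10 genes, and are shown because 2 of the core subunit genes hold a short motif that the choice of members did not use. RefSeq entries were found for VPS11, VPS16, VPS39, VPS41, VPS8, TGFBRAP1 and VIPAS39 but not for VPS33A, VPS33B and VPS18. The motif searched was CACGTG, a palindrome that reads alike on both strands and forms the centre of the element bound by the lysosomal regulators TFEB and TFE3. It was present in 3 of the 9 windows of these genes, each the 250 bases upstream of an annotated start. The 3 windows belong to VPS11 (2 overlapping windows) and VPS16. The site in the second VPS11 window is also in the first, so the matches lie in 2 of the 7 genes. The share over 35116 RefSeq windows of the same length was 6.34%, which is not matched for CpG dinucleotides. A match is a description of these letters only. In the 2 sequences that follow, written 5′ to 3′ from build GRCh38.p14, capitals mark the motif. The VPS11 window is chr11:119067568-119067817 and the VPS16 window is chr20:2840495-2840744, both on the plus strand.
VPS11: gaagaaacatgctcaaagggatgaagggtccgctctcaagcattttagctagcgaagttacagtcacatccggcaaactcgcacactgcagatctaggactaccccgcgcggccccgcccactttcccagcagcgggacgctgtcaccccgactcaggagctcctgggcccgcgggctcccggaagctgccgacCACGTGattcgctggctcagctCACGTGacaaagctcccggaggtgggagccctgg
VPS16: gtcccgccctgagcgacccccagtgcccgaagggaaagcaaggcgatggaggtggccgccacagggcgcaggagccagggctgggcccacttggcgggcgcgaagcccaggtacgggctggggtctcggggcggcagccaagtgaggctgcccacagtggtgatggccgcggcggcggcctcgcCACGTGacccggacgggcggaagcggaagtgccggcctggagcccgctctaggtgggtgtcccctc
The windows also differed in CpG dinucleotides. TGFBRAP1 had 40, a number reached by 2.16% of all windows, and VPS41 had 2, a number reached by 85.3%, while the median of all windows was 11.

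VPS33A, the Sec1/Munc18 subunit of HOPS and CORVET, was close to the counting floor in the KO clone and 4.40-fold apart between the WT libraries. Its counts were 248 and 53 in WT and 7 and 13 in KO. As CPM these were 19.1 and 4.34 in WT and 0.633 and 0.763 in KO, with means of 11.7 ± 10.4 and 0.698 ± 0.0925 (SD, n = 2 each). The KO libraries were each lower than either WT library, and the spread within WT was nearly as large as the WT mean. The mean was 16.8-fold lower in KO, and the fitted log2 fold change was -4.04. No SE is given for it, because VPS33A was chosen on this contrast.

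How much lower VPS33A was depended on which WT library was used. WT replicate 1 was 27.4-fold above the KO mean and WT replicate 2 was 6.22-fold above it. Without WT replicate 1 the log2 fold change was -2.61, and on the log2(RPKM + 0.1) scale, which understates the change of low genes, it was -1.84. Exact 95% Poisson intervals, which cover counting error only, ran from 16.8 to 21.6 CPM in WT replicate 1 and from 3.25 to 5.68 CPM in WT replicate 2. In KO they ran from 0.254 to 1.30 CPM in replicate 1 and from 0.406 to 1.31 CPM in replicate 2. Because VPS33A was chosen on this contrast, these intervals and the ranks that follow are descriptions and not tests. Of 12269 tested genes, 47, VPS33A included, had a log2 fold change at least as low, and among the 2878 whose mean level was within 2-fold of that of VPS33A there were 4, again with VPS33A itself.

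A gap between the WT libraries as wide as that of VPS33A was uncommon. On the log2(CPM + 0.5) scale it was 2.02, and 1.55% of tested genes were at least as far apart in either direction (116 genes, VPS33A included, with WT replicate 1 higher, and 74 with WT replicate 2 higher). Among genes within 2-fold of its level the share was 2.54%. In KO the libraries were 1.21-fold apart, and 59.4% of tested genes were at least as far apart.

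**Figure D1:**
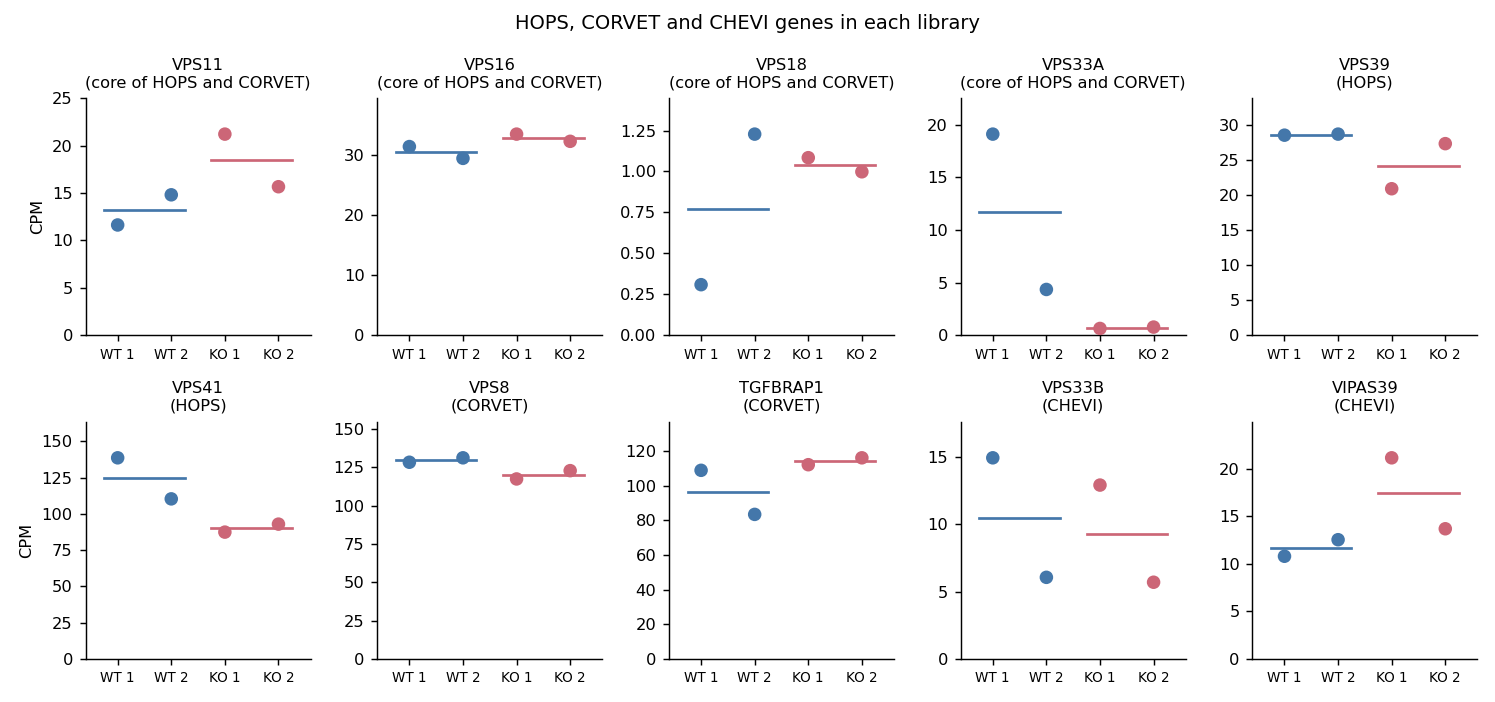
CPM (vertical axes, each from 0) of the 10 genes in the 4 libraries; points are libraries, horizontal lines are group means (blue WT, red KO). VPS33A is near 0 in both KO libraries, at 0.633 and 0.763 CPM, and its WT libraries lie at 19.1 and 4.34 CPM, while VPS33B is higher in replicate 1 than in replicate 2 of both groups.

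The sequence of VPS33A is partly shared with another annotated gene. It lies on the minus strand of chromosome 12 and spans 36958 bases in GENCODE 29 (GRCh38). One gene overlaps it on the same strand, the readthrough AC048338.1, which joins VPS33A exons to those of the next gene, DIABLO. Of the 7588 distinct 31-base words in VPS33A transcripts, 20.4% also occur in AC048338.1 and 27.5% in any other gene. No row of the table carries the name AC048338.1, so its reads, if any, could not be set beside those of VPS33A. It is not known whether AC048338.1 was among the genes to which reads were assigned. A read from shared sequence could come from either gene, so the estimates for VPS33A are uncertain. The part this plays in the difference was not tested.

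Genes next to VPS33A did not share its pattern of values. Its nearest neighbour, DIABLO, which encodes an inhibitor of the IAP proteins that block apoptosis, had 27.4 and 17.4 CPM in WT and 30.9 and 31.2 CPM in KO (log2 fold change 0.47 with an SE of 0.25; edgeR adjusted p = 0.524). The readthrough AC048338.1 holds DIABLO exons as well, so the estimates for DIABLO are uncertain too. On the other side CLIP1, a protein of growing microtubule ends, had 295.8 and 294.6 CPM in WT and 321.3 and 327.1 CPM in KO (log2 difference 0.14, SE 0.11; edgeR adjusted p = 0.631). In both, the KO libraries lay above the WT libraries, the opposite side from VPS33A.

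Of the 4 protein-coding genes on each side, 7 were in the table and 6 were tested. Their log2 fold changes ran from -0.14 for RSRC2 to 0.47 for DIABLO, with 5 above 0. B3GNT4, ZCCHC8 and KNTC1 had 0.11, 0.02 and 0.19. ZCCHC8, RSRC2 and KNTC1 are not close by, with gaps of 205078 to 260724 bases from VPS33A. LRRC43 had 3 counts in 1 library and was not tested, and IL31 was not found in the table. None of the 6 passed edgeR or DESeq2, which called 0.00815% and 1.38% of all the genes they tested. In 3 of the 6 both KO libraries were above both WT libraries and in 0 below, against 23.5% of all tested genes each way.

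**Figure D2:**
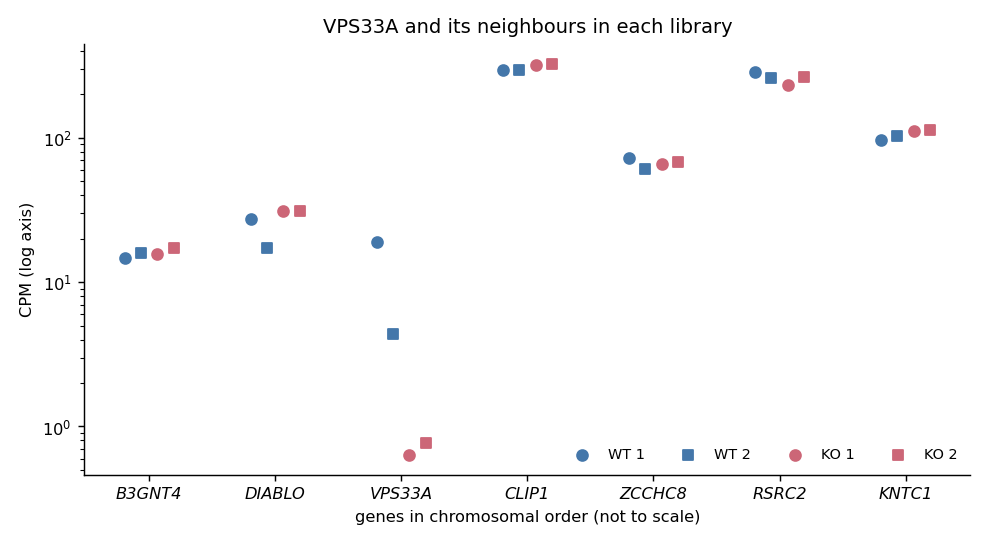
CPM on a log axis of VPS33A and its tested neighbours in chromosomal order, with spacing not to scale; circles are replicate 1 and squares replicate 2, blue WT and red KO. The neighbours lie close together across the 4 libraries, with log2 fold changes from -0.14 to 0.47, and VPS33A alone spreads from 19.1 to 0.633 CPM.

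Of the 9 other members, 0 passed edgeR's quasi-likelihood test at an adjusted p of 0.05, and 0 passed DESeq2. Over all 12269 genes edgeR called 0.00815% (1 gene, NRIP1, named after its value was seen) and DESeq2 called 1.38% of the 13258 to which it gave an adjusted p. DESeq2's calls were lower in KO for 0.89% of genes and higher for 0.49%. At an unadjusted p under 0.05 edgeR gave 1 of the 9, VPS41, lower in KO, against 11.2% of all genes (6.21% lower and 4.97% higher). In 7 of the 9 the groups did not overlap, 4 with KO higher and 3 with KO lower, against 47.0% of all tested genes (23.5% in each direction). The median log2 fold change of the 9 was 0.11, against -0.01 over all genes tested, and it ran from 0.079 without WT replicate 2 to 0.22 without KO replicate 2.

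The remaining core subunits all had values above 0 for the difference. VPS11, a scaffold subunit with a RING domain at its C-terminal end, had 11.6 and 14.8 CPM in WT and 21.2 and 15.7 CPM in KO. KO lay above WT, but KO replicate 2 exceeded WT replicate 2 by less than the gap within either group (log2 fold change 0.48 with an SE of 0.25, 95% interval -0.17 to 1.12; edgeR adjusted p = 0.520). Without KO replicate 1 the value for VPS11 was 0.25, and without KO replicate 2 it was 0.68. VPS16, the subunit that binds VPS33A directly, had 31.4 and 29.4 CPM in WT and 33.4 and 32.2 CPM in KO. This was the steadiest of the core genes between libraries of a group (0.11, SE 0.15, interval -0.26 to 0.49; edgeR adjusted p = 0.771). VPS16 shares 15.2% of its 31-base words with PTPRA, which overlaps it on the same strand in the annotation. Genes on the other strand overlap VPS11, VPS16, TGFBRAP1 and VIPAS39, and without a stated use of strand their reads could be counted together.

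VPS18, the core subunit that also carries a RING domain, had few counts: 4 and 15 in WT and 12 and 17 in KO. The levels were 0.308 and 1.23 CPM in WT and 1.08 and 0.998 CPM in KO, so the WT libraries lay on either side of both KO libraries. Its log2 fold change was 0.44 (SE 0.75) with an interval of -1.47 to 2.35 (edgeR adjusted p = 0.827). Neither a rise nor a fall of the size seen in most other members was detectable at this depth. Without WT replicate 1 the value was -0.24.

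The 2 subunits that HOPS does not share with CORVET both had values below 0. VPS41, a subunit at the lysosomal end of HOPS, had 138.6 and 110.3 CPM in WT and 87.4 and 92.9 CPM in KO, with means of 124.5 ± 20.0 and 90.1 ± 3.89 CPM (SD, n = 2 each). Both KO libraries were below both WT libraries (log2 fold change -0.47 with an SE of 0.15, interval -0.86 to -0.07; adjusted p = 0.409 by edgeR and 0.406 by DESeq2). Without WT replicate 1 the value for VPS41 was -0.29. VPS39, the subunit linked to RAB7 and to contacts with mitochondria, had 28.5 and 28.7 CPM in WT and 20.9 and 27.3 CPM in KO. KO replicate 2 lay just under WT, and KO replicate 1 made most of the difference (-0.24, SE 0.19, interval -0.74 to 0.25; edgeR adjusted p = 0.630). Without KO replicate 1 the value for VPS39 was -0.064, and without KO replicate 2 it was -0.45.

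The CORVET subunits had small differences, 1 in each direction, and neither passed the test. VPS8, the counterpart of VPS41 in CORVET, had 128.4 and 131.3 CPM in WT and 117.5 and 122.9 CPM in KO. These were the tightest intervals among the members (log2 fold change -0.11 with an SE of 0.11, interval -0.39 to 0.17; edgeR adjusted p = 0.693). TGFBRAP1, also called VPS3 and the counterpart of VPS39, had 108.8 and 83.4 CPM in WT and 112.0 and 116.0 CPM in KO. KO was above WT, by little over WT replicate 1 (0.25, SE 0.16, interval -0.17 to 0.67; edgeR adjusted p = 0.579). The value for TGFBRAP1 was 0.081 without WT replicate 2 and 0.45 without WT replicate 1.

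In CHEVI, a complex of VPS33B and VIPAS39 that acts with RAB11 in sorting to apical membranes and to granules, the 2 genes differed in how they varied. VPS33B had 14.9 and 6.06 CPM in WT and 12.9 and 5.70 CPM in KO. Replicate 1 was higher in both groups, 2.47-fold in WT and 2.27-fold in KO, and the groups overlapped (log2 fold change -0.19 with an SE of 0.59, interval -1.69 to 1.32; edgeR adjusted p = 0.914). Without WT replicate 1 the value was 0.61 and without KO replicate 2 it was 0.30. Of its 31-base words, 49.4% also occur in the readthrough AC068831.7, whose name is on no row of the table, so VPS33B is uncertain too. VIPAS39, the VPS16-like partner, shared 0% of its words with genes outside the 10, read on the transcript strand only. Sequence shared with AHSA1, which overlaps VIPAS39 on the other strand, is outside that count. VIPAS39 had 10.8 and 12.5 CPM in WT and 21.1 and 13.7 CPM in KO (0.57, SE 0.28, interval -0.15 to 1.29; edgeR adjusted p = 0.503). The value for VIPAS39 was 0.23 without KO replicate 1 and 0.86 without KO replicate 2.

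**Figure D3:**
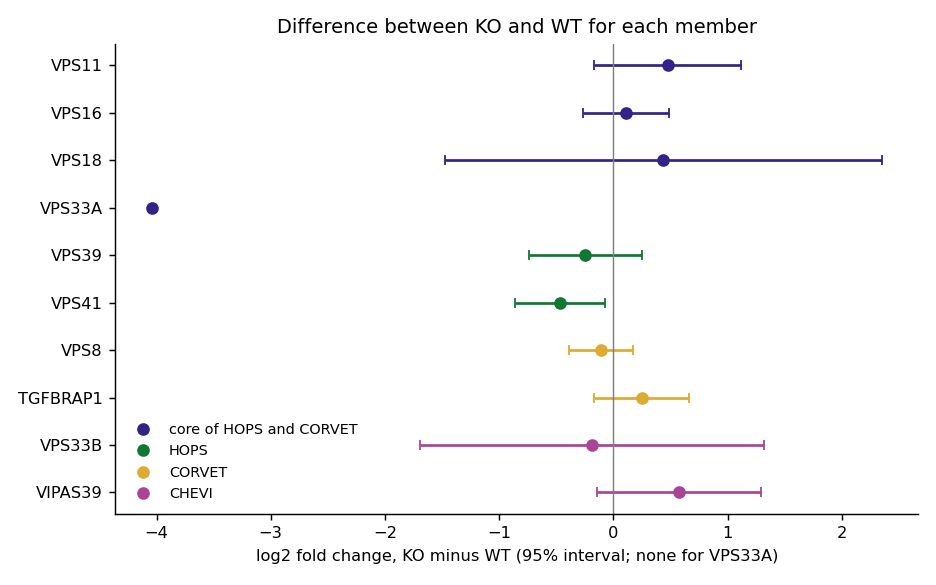
Fitted log2 fold change, KO minus WT (horizontal axis), of each member, coloured by complex; bars are 95% intervals from edgeR, and VPS33A is drawn as a point alone because it was chosen on this contrast. VPS33A lies at -4.04, the other 9 between -0.47 and 0.57, and the interval of VPS41 is the one among the 9 that does not include 0.

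The paralogs VPS33A and VPS33B did not hold a fixed relation across libraries. The ratio of VPS33A to VPS33B CPM was 1.28 and 0.716 in WT and 0.0490 and 0.134 in KO. These ratios follow a member chosen on this contrast and are given as a description. They compare counts of 2 genes of different lengths, so their size says nothing of the ratio of molecules.

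Levels per length were deposited as RPKM. In WT the RPKM were 0.649 and 0.177 for VPS33A, 0.0300 and 0.159 for VPS18 and 1.41 to 2.72 for VPS11, VPS16, VPS39, VPS41, VPS8 and TGFBRAP1. In KO the lowest RPKM of the 10 were those of VPS33A and VPS18, at 0.0237 and 0.0318 for VPS33A and 0.143 and 0.133 for VPS18. The lengths behind these values were 21.5% (VPS8) to 83.3% (TGFBRAP1) of the genomic span, 25238 bases for VPS33A, so they include introns and an order of the subunits by RPKM is not one by mature transcript.

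The genes whose values across the 4 libraries lay nearest to those of VPS33A were RBL2, SKAP2, ITM2B, ACTR2 and PTGFRN. Likeness was the Euclidean distance of log2(CPM + 0.5), centred on the mean of each gene over 4 libraries, and it was 0.592 for RBL2 and 1.02 for PTGFRN. RBL2, a pocket protein related to RB1, had 11.8 and 2.95 CPM in WT and 0.723 and 0.587 CPM in KO. ACTR2, a subunit of the ARP2/3 complex that branches actin, had 99.7 and 23.5 CPM in WT and 8.04 and 14.0 CPM in KO. WT replicate 1 was the highest library and WT replicate 2 the next in all 5. These genes were picked for their likeness, so their values are a description. The distance was not scaled for the size of a change, so members with small differences had to lie far from VPS33A. With the tested genes ranked by distance, the closest other member was VPS41, at rank 1468, and the farthest VPS18, at 11360.

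**Figure D4:**
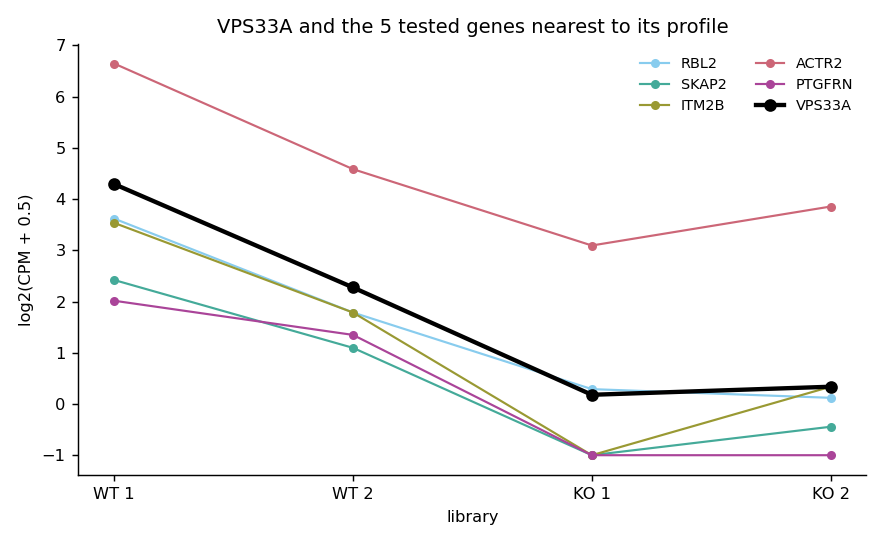
Log2(CPM + 0.5) in each library for VPS33A (black) and the 5 tested genes nearest to it over 4 libraries; lines join the libraries of one gene and imply no order. All 6 genes are highest in WT replicate 1, next in WT replicate 2 and lower in both KO libraries.

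The machinery that acts with HOPS and CORVET was described from 7 lists, of which 149 genes were in the table and 145 were tested. Over all genes 0 of the 145 passed edgeR or DESeq2, and 15 had an unadjusted edgeR p under 0.05 (6 higher and 9 lower in KO), against 11.2% of all genes. In 37 both KO libraries were above both WT libraries and in 34 below, against 23.5% of all tested genes each way. Their median log2 fold change was 0.02. The medians of single lists were close to 0, and leaving out 1 library turned the sign of 5 of the 7. GTPases and adaptors went from -0.03 to 0.069 without WT replicate 1, retromer and ESCRT genes from -0.08 to 0.033, and the lysosome from 0.00241 to -0.017. Without WT replicate 2 the SNAREs were at -0.0033, the other tethers at -0.11, the lysosome at -0.090 and retromer and ESCRT genes at -0.17. Without KO replicate 1 the other tethers were at -0.066, and without KO replicate 2 they were at -0.029 and the lysosome at -0.084. The Sec1/Munc18 proteins (0.064 to 0.15) and autophagy genes (0.087 to 0.16) had medians above 0 with any 1 library left out. Without WT replicate 2, 6 of these genes passed edgeR, in a fit that called 575 genes in all; the lone WT library is there assumed to vary like the KO libraries.

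Among the GTPases and adaptors, 21 genes were tested with a median of -0.03. RAB7A, the GTPase of late endosomes, had 14.5 and 2.62 CPM in WT and 4.52 and 1.76 CPM in KO, so that the groups overlapped (log2 fold change -1.47 with an SE of 0.91; edgeR adjusted p = 0.558). PLEKHM1, an adaptor between RAB7 and HOPS, had 38 and 33 counts in WT and 62 and 273 counts in KO (1.95, SE 0.56; edgeR adjusted p = 0.376). CCZ1B, of the complex that loads RAB7 with GTP, had the lowest value of the adaptors at -0.60, and it has a near-identical copy, CCZ1, so its counts are uncertain.

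The SNAREs had 17 tested genes and a median of 0.04. SNAP29, the SNARE that joins STX17 and VAMP8 on autophagosomes, had 16.4 and 12.9 CPM in WT and 6.60 and 7.28 CPM in KO (log2 fold change -1.08 with an SE of 0.24; adjusted p = 0.302 by edgeR and 0.189 by DESeq2). Both KO libraries were well below both WT libraries, yet the difference did not pass. STX8, a late endosomal SNARE, had the highest value at 0.45. NSF and NAPA, which take SNARE bundles apart after fusion, had 0.03 and 0.21.

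VPS33A has 6 relatives in the Sec1/Munc18 family beside VPS33B, and all 6 were tested, with a median of 0.05. SCFD2 had the lowest value (log2 fold change -0.59 with an SE of 0.30; edgeR adjusted p = 0.510). VPS45, which serves fusion at early endosomes and the trans-Golgi, had the highest, at 0.48 (SE 0.51; edgeR adjusted p = 0.721) from levels of 0.694 to 1.36 CPM. No other member of the family had a value as low as that of VPS33A. Because VPS33A was chosen for its fall, this order is a description only.

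Other tethering complexes had 25 tested genes and a median of 0.03. COG6, a subunit of the Golgi tether COG, was the lowest, with 20.9 and 4.26 CPM in WT and 3.16 and 3.88 CPM in KO. Its WT replicate 2 lay close to KO and WT replicate 1 made the difference (log2 fold change -1.83 with an SE of 0.77; edgeR adjusted p = 0.465). COG7 was the highest at 0.81. In the exocyst, which tethers vesicles at the plasma membrane, the 9 genes ran from -0.25 (EXOC6B) to 0.30 (EXOC4), and in GARP and EARP the 5 ran from -0.36 (VPS51) to 0.49 (VPS52). NBAS, of the tether at the endoplasmic reticulum, had -0.94 (SE 0.33; edgeR adjusted p = 0.420), while RINT1 of the same tether had -0.07.

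Genes of the lysosome had 26 tested members and a median of 0.00241. CTSB, the protease cathepsin B, had 22.6 and 7.70 CPM in WT and 2.35 and 4.40 CPM in KO, again with WT replicate 1 far above WT replicate 2 (log2 fold change -2.15 with an SE of 0.62; adjusted p = 0.378 by edgeR and 0.0618 by DESeq2). CTSA was the highest at 2.01 (SE 1.94), from 0 counts in 1 library of each group. Membrane proteins ran from -0.64 for CD63 to 0.22 for the calcium channel MCOLN1. The regulators TFEB and TFE3 had -0.36 and -0.11 with overlapping groups. Whether they bind the motif in the promoters shown above was not tested.

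Autophagy genes had 24 tested members and a median of 0.12, with KO above WT in 12 and below in 3, against 23.5% of all tested genes in each direction. The median of all tested genes was -0.01, and none of the 24 passed edgeR or DESeq2. ATG14, of the kinase complex that starts autophagosomes, had 0.694 and 0.819 CPM in WT and 2.26 and 4.34 CPM in KO (log2 fold change 2.12 with an SE of 0.52; edgeR adjusted p = 0.333). GABARAP, which is attached to the growing membrane, had the lowest value, at -0.72 (SE 0.27; edgeR adjusted p = 0.437). Retromer and ESCRT genes, which sort cargo on endosomes, had 26 tested members and a median of -0.08, from TSG101 at -0.90 and SNX6 at -0.84 to VPS26B at 0.30 and VPS25 at 0.43.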

How the data were processed

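Per the submitters' processing notes, Salmon 1.10.1 and build hg19 were used; the sources used here give neither the annotation nor the step from transcripts to genes. The authors deposited estimated counts as whole numbers and RPKM for the same 4 libraries. RPKM imply fractional estimates that lay 0 to 1 below the deposited counts in all 133 low values checked, so a low count can be up to 1 too high (6.24 for the 7 counts of VPS33A in KO replicate 1).

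The members and lists were chosen with earlier results of these data known. Counts were tested with edgeR 4.0.16 (quasi-likelihood F-test, TMM, filterByExpr, genotype alone, Benjamini-Hochberg over 12269 genes, threshold 0.05; R 4.3.3) and, as an alternative, DESeq2 1.42.0 with default settings. CPM are counts per 1000000 counts of TMM-scaled library size. SE is the log2 fold change divided by the square root of F. The procedure was tested on simulated counts. An exact permutation test of 2 against 2 libraries cannot go below p = 0.333, so none was run. A limma 3.58.1 fit on log2(RPKM + 0.1), other size factors, no filter, a replicate block and each library left out were also run. In a library, 3 counts correspond to 0.176 to 0.271 CPM.

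Genes named are the 10 members, the extremes of each list role, 4 neighbours a side of VPS33A, and the 5 genes nearest to its profile. A gene that this rule names is not reported here. GENCODE 29 (GRCh38) gave neighbours, spans and shared words, and RefSeq (GRCh38.p14) gave promoters; no coordinates of the hg19 files were used.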

Additional observations from a re-analysis of the deposited data

How the results depend on the processing

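VPS33A was chosen for its fall in these libraries, so the direction of its change under the 9 alternatives was set by that choice. Its log2 fold change was below 0 in all 9, at -1.84 with limma on log2(RPKM + 0.1), -4.03 with no filter and -4.06 with DESeq2. With 1 library left out it ran from -4.73 to -2.61, the smallest being without WT replicate 1. With the replicate number as a block it was -3.66, and the block left the number of genes called at 1. Differences between replicates 1 and 2 in WT were little correlated with those in KO (r = 0.0637 across 12269 genes). A correlation across all genes cannot exclude a pairing that touches only some of them. The 9 other members gave 0 calls under every alternative; 76 of 81 values kept their direction. The exceptions were VPS8 (0.050) and VPS33B (0.010) on RPKM, VPS18 (-0.24) and VPS33B (0.61) without WT replicate 1, and VPS33B (0.30) without KO replicate 2; with 1 library left out VPS18 ran from -0.24 to 1.74 and VPS33B from -0.88 to 0.61. The median of the 9 was 0.26 on RPKM. The RPKM scale moved the median of all genes from -0.01 to 0.11. Over all genes 34 were called with no filter, 183 by DESeq2, 6 on RPKM, and 0 to 575 with 1 library left out, most without WT replicate 2; the machinery lists gave 0 to 6. The cause was not tested. The gene overlapping VPS33A on its strand, AC048338.1, has no row, so the planned sum was not run.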
